A study of Mus musculus with 6 samples.

Results

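The brush border of enterocytes is a dense array of microvilli, and 10 genes that build the microvillus and tie neighbouring microvilli together were followed here in the duodenum of mice lacking the vitamin D receptor (VDR-null) and of wild-type mice. The genes are Vil1, Espn and Eps8 of the actin core, Ezr and Myo1a between core and membrane, and Cdhr2, Cdhr5, Ush1c, Anks4b and Myo7b of the link between microvillus tips. Each was taken from the probe set that the platform annotation pairs with that symbol alone, and each had 1 such probe set, so 10 probe sets stand for 10 of the 22180 genes named on the array. The study compared duodenal RNA of 3 VDR-null and 3 wild-type mice, all 10 weeks old and on a C57Bl/6 background, with 1 Affymetrix Mouse Gene 2.0 ST array per mouse. The probes of such an array lie along the whole transcript, and the values are log2 signals. The labels name neither the targeted allele nor the sex or diet of the mice.

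A microvillus is a membrane finger around a bundle of parallel actin filaments. Villin, espin and other proteins cross-link the bundle, EPS8 sits at its tip where filaments grow, and ezrin and myosin 1a attach its sides to the membrane. As enterocytes leave the crypt and climb the villus their microvilli lengthen and pack into a regular array. The protocadherins CDHR2 and CDHR5, which reach from the tips of adjacent microvilli and bind each other, hold them at a set spacing. Inside the tip, the scaffolds harmonin (Ush1c) and ANKS4B join the tails of these protocadherins to the motor myosin 7b, an arrangement much like that of the tip links of hair cells in the inner ear, whose harmonin is the product of the same gene.

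Sequences before the transcription starts are shown for Vil1, whose values lay nearest the mean of the set, for Cdhr2 and Cdhr5, whose values varied most between arrays, and for Anks4b, in which the genotypes did not overlap. They are the 250 bases upstream of an annotated start, from RefSeq on GRCm38.p6, written 5′ to 3′ on the strand of the gene, with the matches described after them in capitals.
Vil1, chr1:74409134-74409383, plus strand: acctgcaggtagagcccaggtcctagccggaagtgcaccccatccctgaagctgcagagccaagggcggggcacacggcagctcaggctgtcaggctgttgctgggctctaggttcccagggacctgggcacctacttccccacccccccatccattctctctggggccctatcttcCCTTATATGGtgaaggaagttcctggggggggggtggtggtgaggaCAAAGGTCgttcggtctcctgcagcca
Cdhr2, chr13:54701213-54701462, plus strand: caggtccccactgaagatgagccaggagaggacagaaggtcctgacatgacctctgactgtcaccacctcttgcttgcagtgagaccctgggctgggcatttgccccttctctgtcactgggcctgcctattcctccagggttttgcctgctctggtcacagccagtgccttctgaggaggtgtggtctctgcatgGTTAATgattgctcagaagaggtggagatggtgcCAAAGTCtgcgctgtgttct
Cdhr5, chr7:141276787-141277036, minus strand: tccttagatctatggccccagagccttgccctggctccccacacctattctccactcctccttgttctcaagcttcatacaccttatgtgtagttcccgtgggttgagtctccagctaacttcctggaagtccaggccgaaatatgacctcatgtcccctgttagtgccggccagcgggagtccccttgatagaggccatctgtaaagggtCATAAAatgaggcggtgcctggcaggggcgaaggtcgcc
Anks4b, chr7:120173608-120173857, plus strand: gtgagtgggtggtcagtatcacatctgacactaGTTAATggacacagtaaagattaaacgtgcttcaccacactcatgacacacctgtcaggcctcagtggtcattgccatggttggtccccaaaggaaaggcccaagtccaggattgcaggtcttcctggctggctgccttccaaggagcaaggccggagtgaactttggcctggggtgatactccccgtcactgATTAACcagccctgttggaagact

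The promoter table held windows for 8 of the 10 genes, 10 windows in all because Espn has 3 annotated starts, and Eps8 and Myo7b are named only. All windows were searched on both strands for short motifs of factors active in the intestine or on actin genes, and matches are a description of letters, not of binding. In the Vil1 window the capitals mark a CArG box, the motif of serum response factor, at 73 to 64 bases before the start, and CAAAGGTC, a form of the hepatocyte nuclear factor 4 motif, at 27 to 20 bases. The window of Cdhr2 held GTTAAT, the half-site of hepatocyte nuclear factor 1, at 54 to 49 bases and CAAAGTC, another form of the hepatocyte nuclear factor 4 motif, at 20 to 14 bases. Anks4b had GTTAAT 217 to 212 bases before its start and, on the other strand as ATTAAC, 24 to 19 bases before it. Cdhr5 had TTTATG, a motif of the caudal-type factors, on the other strand as CATAAA at 39 to 34 bases. The same motif was in 1 of the 3 Espn windows, and none of the motifs was found in those of Ezr, Myo1a and Ush1c. Of all 32851 promoter windows of this length, 1.47% held a CArG box, 1.01% CAAAGGTC, 3.84% CAAAGTC, 6.43% GTTAAT and 10.8% TTTATG. The DR3 element, the paired half-sites that the vitamin D receptor binds, was in 0.0396% of all windows and in 0 of the 10 windows here, and TATAAA was in 12.4% and in 0 of the 10. No motif overlapped another in these windows.

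The arrays were alike in overall level, with medians between 5.15 and 5.19, and 13174 genes were bright enough to be tested, all 10 microvillus genes among them on all 6 arrays. Vdr, the targeted gene, read 10.99, 10.86 and 10.85 on VDR-null arrays and 10.72, 10.95 and 11.11 on wild-type arrays. Its values overlapped. The labels do not say which part of the gene was removed or where the probes lie, so this reading is no check of the genotypes. An array of each genotype stood apart along the first principal component, which held 62.2% of the variance. VDR-null replicate 1 lay at -34.6 and wild-type replicate 1 at 34.6, with the other 4 arrays between -10.1 and 9.63. The members' differences and the medians of the gene lists are therefore given with these arrays and without them. The mean of 10 tested pan-epithelial genes lay between -0.06 and 0.04 of its 6-array mean on VDR-null arrays. On wild-type arrays it lay between -0.05 and 0.05. Single genes of that list moved in opposite ways. Esrp1 read 8.03 on VDR-null replicate 1 and 8.54 on wild-type replicate 1, and Cldn7 read 10.16 and 9.87. Whether epithelial content was equal was not tested. Smooth muscle of the wall was measured as well. In such bulk samples fewer cells of a type and less RNA per cell cannot be told apart.

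All 10 microvillus genes averaged higher in VDR-null than in wild-type duodenum, by 0.29 (Espn) to 0.75 (Cdhr2) on the log2 scale, with a median difference of 0.50, or 1.22-fold to 1.68-fold. The median over all 13174 genes was -0.03, and 44.0% of them had a difference above 0. None of the 10 passed the limma test at an adjusted p under 0.05, nor did any of the genes tested (0%). At an unadjusted p under 0.05, 1 of the 10 was higher, Anks4b, against 2.20% of all genes higher at that level, and 0 were lower, against 3.03%. Anks4b was also the member whose arrays did not overlap between the genotypes, 1 of 10 beside 4.87% of all genes with VDR-null arrays wholly above wild-type ones and 6.22% with them wholly below.

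Among genes of the actin core, Vil1, which encodes villin, the calcium-regulated protein that bundles, caps and severs actin, read 11.87, 11.44 and 11.12 on VDR-null arrays and 10.48, 11.29 and 11.19 on wild-type arrays. VDR-null replicates 1 and 2 were above every wild-type array, but VDR-null replicate 3 was below wild-type replicates 2 and 3. The difference was 0.49 ± 0.27 (moderated SE; 95% confidence interval -0.14 to 1.12; limma adjusted p = 0.683). Espn, for the actin bundler espin, read 7.25, 6.95 and 6.25 in VDR-null duodenum and 6.16, 6.73 and 6.71 in wild-type duodenum. Here VDR-null replicate 3 stood close to the lowest array, wild-type replicate 1, and the difference, 0.29 ± 0.28 (95% confidence interval -0.37 to 0.94; limma adjusted p = 0.733), was the smallest of the 10. Eps8, for the tip protein that caps and cross-links filaments, read 9.51, 9.23 and 8.94 on VDR-null arrays and 8.65, 8.998 and 8.94 on wild-type arrays. The replicate 3 arrays of the genotypes were level, and the groups overlapped (difference 0.37 ± 0.17, 95% confidence interval -0.04 to 0.77).

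The membrane-linking genes again had VDR-null replicate 1 highest and wild-type replicate 1 lowest, with wild-type replicate 3 rather than VDR-null replicate 3 next to the lowest. Ezr, which encodes ezrin, the linker that binds membrane proteins at its head and actin at its tail, read 11.79, 11.32 and 11.003 in VDR-null duodenum and 10.36, 11.06 and 10.93 in wild-type duodenum. Only wild-type replicate 2 reached above the lowest VDR-null array, and the difference was 0.59 ± 0.25 (95% confidence interval -0.0072 to 1.18; limma adjusted p = 0.683). Myo1a, for the class I myosin that tethers the core to the membrane along its side, read 11.01, 10.64 and 10.43 on VDR-null arrays and 9.62, 10.48 and 10.43 on wild-type arrays. Its replicate 3 arrays were at the same level in both genotypes, and wild-type replicate 1 lay far below the other 5 (difference 0.51 ± 0.26, 95% confidence interval -0.10 to 1.13).

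**Figure D1:**
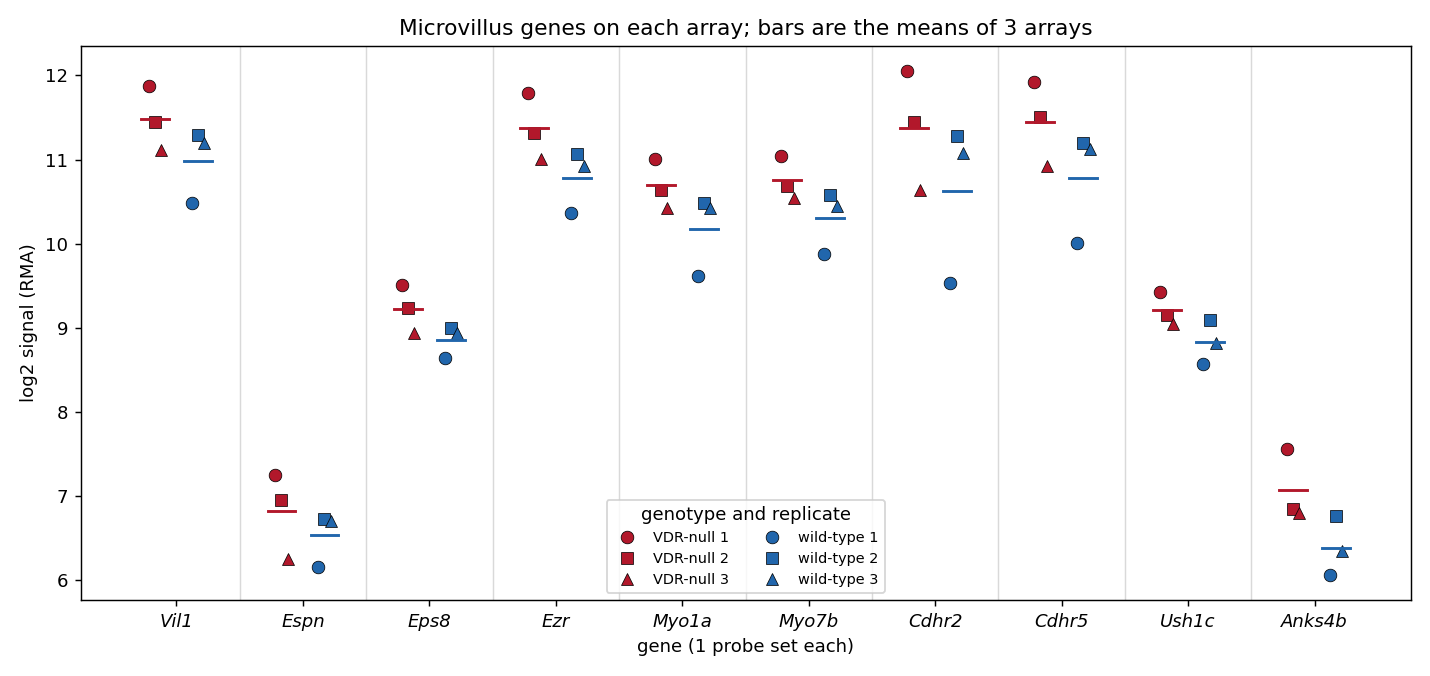
Log2 signal of the 10 microvillus genes on each array, with VDR-null arrays in red on the left and wild-type arrays in blue on the right of each gene, and horizontal bars for the means of 3 arrays. Wild-type replicate 1 is the lowest and VDR-null replicate 1 the highest array in all 10 genes; levels of different genes come from different probes and are not comparable.

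The 2 protocadherins of the intermicrovillar link varied most. Cdhr2 read 12.05, 11.44 and 10.64 in VDR-null duodenum and 9.53, 11.28 and 11.08 in wild-type duodenum, a range of 2.52 over the 6 arrays, where the median range of all genes tested was 0.43. VDR-null replicate 3 was lower than wild-type replicates 2 and 3, and the difference of 0.75 ± 0.53 had the widest interval of the 10 (95% confidence interval -0.51 to 2.01; limma adjusted p = 0.684). Cdhr5, for the mucin-like partner that CDHR2 binds across the gap, read 11.92, 11.51 and 10.93 on VDR-null arrays and 10.01, 11.20 and 11.13 on wild-type arrays. It had the next widest range, 1.91, and the same arrays overlapped (difference 0.68 ± 0.38, 95% confidence interval -0.22 to 1.57).

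The genes inside the tip varied less than the protocadherins. Anks4b, for a scaffold with ankyrin repeats, read 7.56, 6.85 and 6.81 on VDR-null arrays and 6.06, 6.76 and 6.34 on wild-type arrays. Every VDR-null array was above every wild-type array, although the lowest VDR-null and the highest wild-type array stood close, at 6.8059 and 6.7620. The difference was 0.68 ± 0.25 (95% confidence interval 0.08 to 1.29; limma unadjusted p = 0.0322, adjusted p = 0.683), and 231 of the 13174 genes tested had a larger one. Ush1c, for harmonin, read 9.43, 9.15 and 9.04 in VDR-null duodenum and 8.58, 9.09 and 8.82 in wild-type duodenum. Its groups overlapped through wild-type replicate 2, and its range of 0.85 was the narrowest of the 10 (difference 0.38 ± 0.16, 95% confidence interval -0.0068 to 0.76). Myo7b, for the motor that gathers the complex at the tip, read 11.04, 10.69 and 10.55 on VDR-null arrays and 9.87, 10.58 and 10.45 on wild-type arrays. Again wild-type replicate 2 alone passed the lowest VDR-null array (difference 0.46 ± 0.21, 95% confidence interval -0.05 to 0.97).

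The 10 genes shared the order of the arrays. Wild-type replicate 1 was the lowest and VDR-null replicate 1 the highest array in all 10, and VDR-null replicate 2 came next below the highest in all 10. That order of 3 arrays was found in 8.46% of all genes tested. In the mean of the 10 the remaining arrays lay close together, but single genes differed. Cdhr2 read 10.64 on VDR-null replicate 3 and 11.28 on wild-type replicate 2. VDR-null replicate 3 was next to the lowest in 5 genes and wild-type replicate 3 in the other 5. With each gene set against its own 6-array mean, the average of the 10 was 0.66, 0.24 and -0.12 on VDR-null arrays and -0.75, 0.06 and -0.08 on wild-type arrays, or 0.26 ± 0.39 and -0.26 ± 0.44 (SD, n = 3 each). The standard deviations within a genotype stand beside a mean difference between the genotypes of 0.52.

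**Figure D2:**
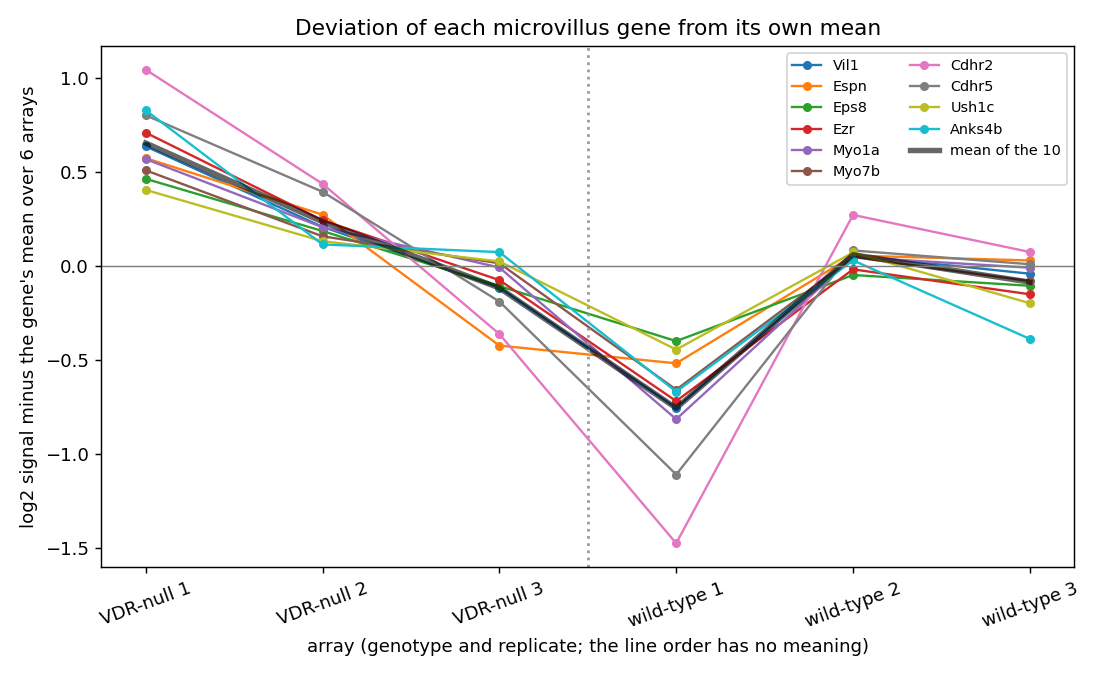
Deviation of each microvillus gene from its own mean over the 6 arrays (log2), by array, with VDR-null arrays left of the dotted line and wild-type arrays right of it, and the mean of the 10 genes in black. The mean runs from 0.66 on VDR-null replicate 1 to -0.75 on wild-type replicate 1, and Cdhr2 swings most, from 1.05 to -1.47.

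Around this shared order the genes differed in size. Vil1 followed the mean of the 10 most closely, with a root mean square distance of 0.02 over the 6 arrays, and Cdhr2 least, with 0.37. For each unit by which the other 9 genes moved together across the arrays, Cdhr2 moved by 1.97 and Cdhr5 by 1.43 log2 units, Vil1, Ezr, Anks4b and Myo1a by 0.96 to 1.00, Myo7b and Espn by 0.79, and Eps8 and Ush1c by 0.59 and 0.57. These slopes are descriptions over 6 arrays. Without both replicate 1 arrays Cdhr2 had a slope of 1.88, Cdhr5 of 1.49 and Ush1c of 0.56, close to the values over all arrays, while Espn had 1.42, Anks4b 0.55, Myo1a 0.58 and Myo7b 0.50. Espn and Anks4b also parted on VDR-null replicate 3, where Espn lay 0.31 below and Anks4b 0.19 above the mean deviation of the set. On wild-type replicate 3 Anks4b lay 0.30 below that mean and Espn 0.12 above it.

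Leaving out single arrays kept every member's difference above 0, but its size depended on the replicate 1 arrays. Without VDR-null replicate 1 the differences ran from 0.07 (Espn) to 0.44 (Cdhr5), with a median of 0.34. Without wild-type replicate 1 they ran from 0.10 (Espn) to 0.52 (Anks4b), with a median of 0.25. Without both, 8 of the 10 were above 0 and the median was 0.09, with Anks4b at 0.27, Ezr at 0.17 and Ush1c at 0.14 the highest, Vil1 at 0.04, Espn at -0.12 and Cdhr2 at -0.14. The count of members whose arrays did not overlap depended on an array of each genotype. Without VDR-null replicate 3, the other 2 VDR-null arrays were above all wild-type arrays in 10 of 10 members, against 16.5% of all genes. Without wild-type replicate 2, separation held for 5 of 10, against 13.1%. The groups overlapped through these arrays, so both counts follow from the array order given above and are no further support. With any other single array left out, or both replicate 1 arrays, the count stayed at 1.

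**Figure D3:**
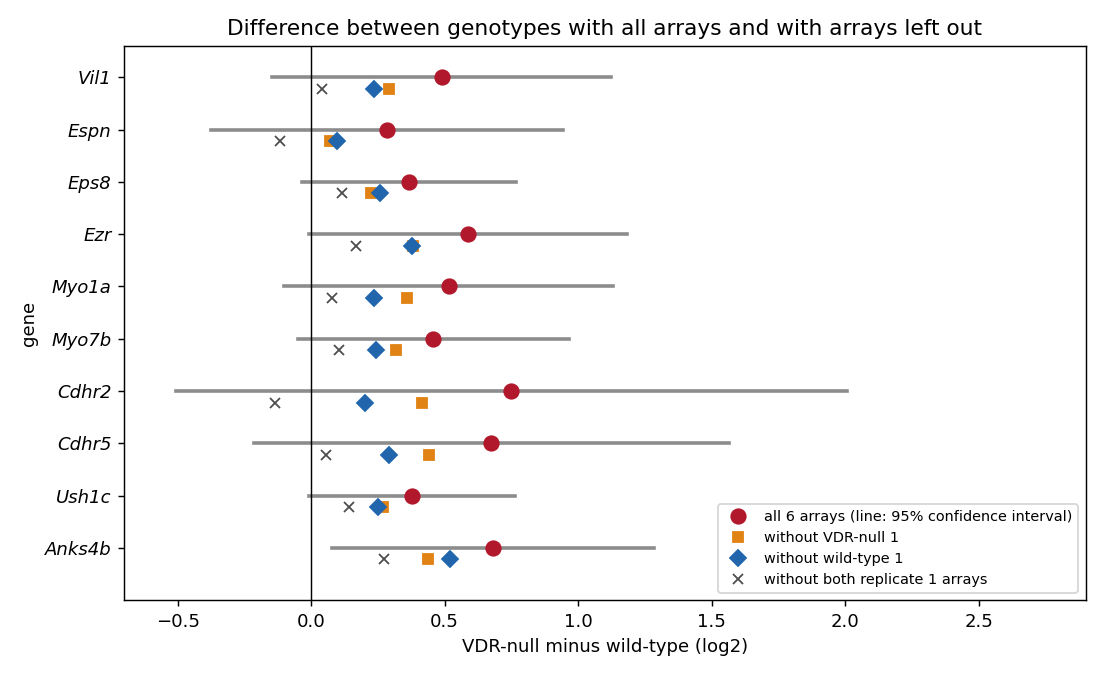
VDR-null minus wild-type difference (log2) of the 10 microvillus genes with all 6 arrays (red circles, with 95% confidence intervals), without VDR-null replicate 1 (orange squares), without wild-type replicate 1 (blue diamonds) and without both (crosses). With all arrays every interval except that of Anks4b includes 0, and without both replicate 1 arrays the differences lie between -0.14 and 0.27.

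On average, the digestive enzymes anchored in the same membrane followed the same order of arrays over a wider range. All 14 tested brush border hydrolases, of 16 listed, were higher on VDR-null arrays, with a median difference of 0.98 and 0 past the limma threshold. Anpep, the aminopeptidase with the smallest p of that list, read 12.76, 12.70 and 12.35 in VDR-null duodenum and 11.62, 12.23 and 11.99 in wild-type duodenum (0.66 ± 0.18). All VDR-null arrays were above all wild-type arrays in 2 of the 14, Anpep included, against 4.87% of all genes. The list's mean deviation ranged from -0.17 to 1.20 on VDR-null arrays and from -1.65 to 0.17 on wild-type arrays, a span of 2.85 beside 1.41 for the microvillus genes. Without both replicate 1 arrays 7 of the 14 hydrolases were higher and 7 lower, with a median of -0.0077, and with their mean as a covariate the median difference of the microvillus genes was 0.07. Crypt and division genes, on average lowest on VDR-null replicate 1 and highest on wild-type replicate 1, were lower in 12 of 12 tested cases with a median of -0.33, and without both replicate 1 arrays in 10 of 12 with a median of -0.07 (-0.20 without VDR-null replicate 1 alone and -0.21 without wild-type replicate 1 alone). Their mean lay between -0.41 and 0.12 on VDR-null arrays and between -0.12 and 0.39 on wild-type arrays. Lgr5, the stem cell receptor, read 7.27, 7.56 and 7.89 in VDR-null duodenum and 8.36, 8.04 and 7.92 in wild-type duodenum. The part of villus and crypt content in the microvillus result was not tested.

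Markers of the wall and of other cells differed in direction, with smooth muscle genes lower and leukocyte and pancreatic genes mostly higher. Smooth muscle genes were lower in 10 of 10 cases (median -0.40, and -0.30 without both replicate 1 arrays). Their mean lay between -0.19 and -0.18 on VDR-null arrays and between -0.13 and 0.40 on wild-type arrays. VDR-null arrays were wholly below wild-type ones in 6 of the 10, against 6.22% of all genes. Synpo2, a muscle actin-binding protein, differed by -0.42 ± 0.12. With the smooth muscle mean as a covariate the median of the microvillus genes was 0.23. That mean barely varied among VDR-null arrays, and the covariate raised the moderated SE of every member, for Vil1 from 0.27 to 0.42. The median of 0.23 is therefore imprecise. Stromal genes were lower in 7 of 8 (median -0.22, with Col1a2, a collagen chain, at -0.26 ± 0.11). Their median was -0.07 without VDR-null replicate 1 and -0.09 without wild-type replicate 1, and without both 5 of 8 were higher, with a median of 0.02. Leukocyte genes were higher in 8 of 10 (median 0.44, between -0.18 and 0.45 on VDR-null and between -0.49 and 0.32 on wild-type arrays), and without both replicate 1 arrays in 7 of 10 (median 0.16). Single arrays moved that median as well, to 0.24 without VDR-null replicate 2, 0.23 without wild-type replicate 1 and 0.27 without wild-type replicate 3. The macrophage lysozyme Lyz2, with the smallest p of the list, ran against it at -0.28 ± 0.11. Of the T cell genes, named after their values were seen, Cd3g, a chain of the T cell receptor complex, differed by 0.77 ± 0.38 and Gzma, for granzyme A, by 1.02 ± 0.79. Cd3g read 8.59, 8.35 and 7.54 on VDR-null arrays and 6.86, 8.12 and 7.19 on wild-type arrays, so that its highest and lowest arrays were those of the microvillus genes. Of the 8 defining genes of tuft, goblet, Paneth and endocrine cells 7 were lower, with a median of -0.10 and the granin Chgb at -0.21 ± 0.12. That median was -0.02 without VDR-null replicate 1 and -0.04 without wild-type replicate 1, and without both 5 of the 8 were higher, with a median of 0.04. Pancreatic acinar genes were higher in 3 of 4 tested cases (median 1.43, and 0.49 without VDR-null replicate 3). Their mean stood out on that single array, at 2.27 on VDR-null replicate 3. It lay between -0.54 and 0.20 on the other VDR-null arrays and between -0.87 and -0.19 on wild-type arrays. Clps was an exception, highest on wild-type replicate 1 at 11.85, against 11.49 on VDR-null replicate 3. The protease precursor gene Ctrb1 read 11.06 on VDR-null replicate 3 and 6.19 to 8.57 elsewhere, and the amylase gene Amy2b was dim on all 6 arrays. Pan-epithelial genes, 3 higher and 7 lower of 10 with a median of -0.04 (6 higher and 4 lower without both replicate 1 arrays, median 0.03), did not follow the microvillus genes, and Esrp1, an epithelial splicing factor, differed by -0.19 ± 0.13. No gene of these marker lists passed the limma threshold, and their part in the microvillus result was not tested.

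**Figure D4:**
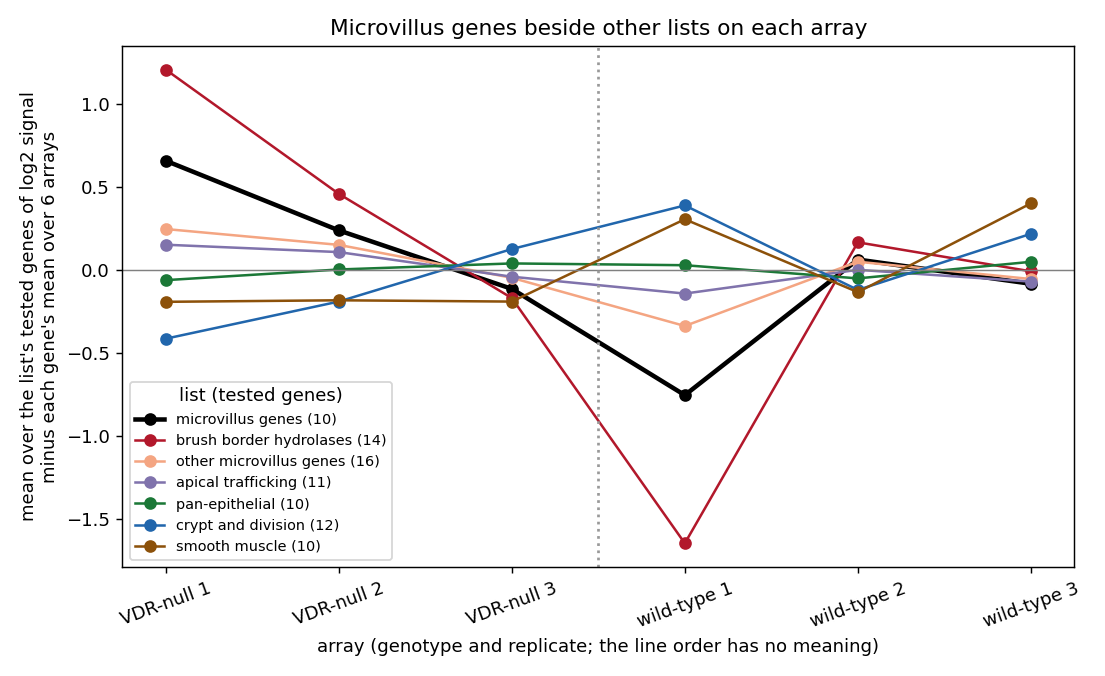
Mean deviation (log2) of the tested genes of 7 lists on each array, each gene set against its own mean over the 6 arrays, with VDR-null arrays left of the dotted line. The microvillus genes (black) follow the brush border hydrolases over a smaller span, 1.41 against 2.85, and pan-epithelial genes stay between -0.06 and 0.05.

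Other genes of the microvillus core, tip and membrane attachment split into a few that varied with the 10 and many with differences near 0. Of 20 listed, 16 were tested, 12 were higher and 4 lower, with a median of 0.07 and 0 past the limma threshold in either direction. Pls1, for the actin bundler plastin 1, read 11.66, 11.17 and 10.50 in VDR-null duodenum and 9.45, 10.89 and 10.55 in wild-type duodenum (0.81 ± 0.43). Clic5, an ezrin-associated protein, differed by 0.74 ± 0.33, and Mpp1, a membrane-associated guanylate kinase of the actin cortex, by 0.84 ± 0.43. In all 3 genes wild-type replicate 1 was the lowest and VDR-null replicate 1 the highest array. Without both replicate 1 arrays 11 of the 16 were higher, by a median of 0.06.

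Ezrin's relatives, kinases and scaffolds split in direction, with 4 of 10 tested genes higher, 6 lower and a median of -0.15. The median was -0.07 without VDR-null replicate 1, -0.01 without wild-type replicate 1 and 0.0028 without both, where 5 were higher and 5 lower. Slc9a3r1, for the scaffold NHERF1 that ezrin binds, read 11.25, 10.56 and 10.13 on VDR-null arrays and 9.20, 10.32 and 10.17 on wild-type arrays (0.75 ± 0.37). Stk10, a kinase that phosphorylates ezrin, differed by 0.52 ± 0.27, and Podxl, for the sialomucin podocalyxin, by -0.40 ± 0.15. In the terminal web, the mat of myosin, spectrin and keratin into which the cores are rooted, 6 of 15 tested genes were higher and 9 lower, with a median of -0.04, and of -0.01 without both replicate 1 arrays. Krt20, a keratin of villus enterocytes, read 12.16, 11.09 and 10.44 in VDR-null duodenum and 8.81, 10.79 and 10.85 in wild-type duodenum, a range wider than that of Cdhr2 (difference 1.08 ± 0.64). Actn1, an alpha-actinin, differed by -0.38 ± 0.15 and Vcl, for vinculin, by -0.14 ± 0.09. None of these passed the limma threshold.

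Genes that deliver membrane to the apical surface were higher in 10 of 11 cases, by a median of 0.12, and 0 passed the limma threshold. Without both replicate 1 arrays 11 of 11 were higher, by a median of 0.05. Stx3, the apical syntaxin, read 9.23, 8.64 and 8.48 on VDR-null arrays and 8.14, 8.48 and 8.43 on wild-type arrays (0.43 ± 0.21), without overlap but with VDR-null replicate 3 and wild-type replicate 2 level to 2 decimals. The small GTPases Rab8a and Rab11a differed by 0.26 ± 0.12 and 0.20 ± 0.12. Of 12 genes of the hair cell counterpart of the link, 4 were tested, and Cdh23, the cadherin of the hair cell tip link, was dim on all 6 arrays, as were Adgrv1, Clrn1, Myo15, Strc and Loxhd1. Of the tested ones, the scaffold Whrn differed by -0.26 ± 0.11, the motor Myo7a by 0.20 ± 0.16 and Triobp, an actin bundler of stereocilium rootlets, by 0.07 ± 0.08. The 4 had a median difference of 0.09, and of -0.0028 without both replicate 1 arrays. Of the intestinal transcription factors, 6 of 9 tested were higher (median 0.05, 0.01 without both replicate 1 arrays and -0.0056 without VDR-null replicate 3). Differences were 0.93 ± 0.48 for Klf4, 0.37 ± 0.25 for Hnf4g and 0.17 ± 0.14 for Gata6. Klf4, a factor of differentiated epithelium, read 10.11 on VDR-null replicate 1, against 8.42 and 8.30 on the other VDR-null arrays and 7.66, 8.34 and 8.03 on wild-type arrays.

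Outside the set, the 5 tested genes whose deviations over the 6 arrays lay nearest the mean of the microvillus genes were Crybg2, Myo15b, Sec23a, Dgkq and Tmem120a, at root mean square distances of 0.03 to 0.05. Crybg2 read 8.26, 7.85 and 7.52 on VDR-null arrays and 6.84, 7.73 and 7.57 on wild-type arrays. Myo15b, of an unconventional myosin family, read 10.18, 9.81 and 9.48 in VDR-null duodenum and 8.84, 9.64 and 9.55 in wild-type duodenum. Sec23a encodes a coat protein of vesicles leaving the endoplasmic reticulum, and Dgkq a diacylglycerol kinase. The differences of the 5 lay between 0.48 (Myo15b) and 0.53 (Dgkq), each with a limma adjusted p of 0.683. Differences near those of the microvillus genes follow from picking genes by profile.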

How the data were processed

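Duodena of 6 mice, 3 VDR-null and 3 wild-type by their titles, were measured on Affymetrix Mouse Gene 2.0 ST arrays. The table deposited by the authors holds a log2 signal for each probe set and mouse. Per the submitters' processing notes it was made with RMA, which corrects background, equalises the distributions of arrays and summarises probes, in Affymetrix Expression Console. No label says whether all arrays went through RMA in a single run, and the base of the logarithm is inferred from the method and the values. Nothing says whether mice shared litters or batches.

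Of 41345 probe sets, the platform annotation gives 23521 a single symbol, 1814 several and 16010 none. A gene with several probe sets was represented by the brightest on average, giving 22180 genes, and 13174 of these were tested because 3 or more arrays exceeded the overall median of 5.17. The test was limma 3.58.1 (R 4.3.3; lmFit and eBayes without covariates, two-sided), adjusted by Benjamini-Hochberg over all genes tested, called under 0.05. Each difference is the VDR-null mean less the wild-type mean, in log2 units, with a moderated SE; ± after a group mean is an SD. The code was tested on simulated data. The number of arrays limits the precision.

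The 10 genes, the other lists and the alternatives were chosen with earlier results of these data known. Named genes were the 10, up to 3 of each related list and 1 of each cell type list by smallest p, dim defining genes, the 5 nearest in profile, and Vdr. Cd3g, Gzma, Cldn7 and Clps were named outside this rule. Lists were described by counts and medians without a test. Promoter sequences are RefSeq's (GRCm38.p6). Alternatives covered filters, normalizations, variance priors, array weights, a block for the replicate number, arrays left out, probe set rules, covariates and a looser threshold.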

Additional observations from a re-analysis of the deposited data

How the results depend on the processing

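Under the 22 alternatives no microvillus gene and no other gene passed the limma threshold, 0.1 included, and the lowest adjusted p of a microvillus gene was 0.200 (Anks4b, with array weights). Of 220 differences of single members under these alternatives 215 kept their sign. The filters, variance priors, replicate block, probe set rules and looser threshold left the differences as they were, so no sign could change there. With both replicate 1 arrays left out Cdhr2 was at -0.14 and Espn at -0.12; with the brush border hydrolase mean as a covariate Cdhr2 was at -0.22, Espn at -0.16 and Cdhr5 at -0.0042, and the median of the 10 was 0.0715, the cause of which was not tested. The median was 0.25 to 0.66 when single arrays were left out, 0.09 without both replicate 1 arrays, 0.35 with array weights, 0.43 with the pan-epithelial and 0.23 with the smooth muscle covariate, and 0.48 to 0.54 under the other normalizations. The replicate numbers are those of the sample titles, and the descriptions number 2 of the wild-type mice differently. No label says whether the title numbers pair the mice. The deviations of same-numbered arrays correlated at -0.62, 0.19 and -0.26 over the genes tested, which cannot show whether mice shared a litter or batch. With the replicate block the median was again 0.50 and 0 members were called. Dim probe sets, such as that of Cdh23, allow no comparison. With 3 mice a genotype, the pooled standard deviation within a genotype of the members' mean per array was 0.41, beside their median difference of 0.50.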
